A study of Oreochromis niloticus with 12 samples.

Results

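Testes of Nile tilapia (Oreochromis niloticus), a farmed cichlid fish, were compared by RNA sequencing between fish labelled as SF1-suppressed and control fish. These 6 libraries, 3 in each group, were chosen by their tissue and genotype labels out of 12 in the series, the other 6 being ovary. Antisense RNA fragments directed at SF1 had been brought into the eggs with a transfection reagent, through the opening by which sperm enter, as the labels describe. Larvae were first kept for 30 days in a small system, and the whole culture lasted 150 days. Control eggs received the reagent with ultrapure water or with a blank plasmid. All groups therefore shared the reagent and the rearing, and the labels call control testis sexually mature. They do not say which antisense construct or which control each library came from, nor whether a library was 1 fish or pooled tissue. The p-values below thus measure the spread between these libraries, which may be technical.

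SF1 (steroidogenic factor 1, gene nr5a1) is a nuclear receptor that binds DNA beside genes of cholesterol uptake and steroid synthesis and activates them. In the vertebrate testis it is made in Leydig cells, which produce androgens, and in Sertoli cells, which nurse the germ cells. The bulk of testis RNA comes from germ cells that divide, pass through meiosis and build a flagellum, so bulk measurements mix all of these cells, and fewer cells of a type cannot be told apart from less RNA per cell.

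The libraries held between 36.8 and 56.6 M estimated read counts, and between 13121 and 14589 genes reached 1 FPKM (fragments per kilobase of transcript, scaled to library depth).  On the first principal component of log2 CPM values (counts scaled to library size, 61.9% of the variance) the control libraries lay between -48.3 and -34.9 and the suppressed ones at 22.7, 25.2 and 76.6. Suppressed replicate 3 also stood apart on the second component (23.7%), at -37.9 against 39.3 and 31.9 for replicates 1 and 2. Its biological coefficient of variation was 34.9 and 32.0% against replicates 1 and 2, which differed from each other by 14.1%, while the control pairs differed by 11.8 to 17.6%. The counts of calls over all genes and in each list are therefore given with and without it. Where 3 values are set against 3 others, the first are FPKM in control replicates 1 to 3 and the others in suppressed replicates 1 to 3. Marker genes were present as the tissue label says. The male sex factor dmrt1 stood at 279, 261 and 264 against 283, 291 and 323 FPKM. The meiotic chromosome protein sycp3 stood at 1079, 946 and 863 against 1138, 1128 and 2112 FPKM, and the sperm tail protein tekt1 at 148, 132 and 115 against 125, 135 and 169 FPKM. A call is said to be lost without a library where the fit that leaves it out no longer passes.

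Of 14368 genes with at least 1 FPKM in at least 3 of the 6 libraries, 755 (5.25%) rose and 816 (5.68%) fell in the suppressed libraries at an adjusted p under 0.05, which is 10.9% of genes in either direction (quasi-likelihood test of edgeR, Benjamini-Hochberg adjustment over all genes tested). The median change of the genes that rose was 0.84 on the log2 scale and of those that fell -0.97, while all genes tested had a median of 0.00 and quartiles of -0.30 and 0.26. Changes of over 2 log2 units were seen in 142 genes that rose and 113 that fell. The groups of 3 did not overlap in deposited FPKM for 5597 genes (39.0%). Scaled by total count alone, 554 rose and 1183 fell and the median of all genes moved to -0.12, so rises were 48.1% of calls in the first fit and 31.9% with this scaling. Without suppressed replicate 3, 1396 genes rose (9.72%) and 1503 fell (10.5%), among them all 755 and all 816. Leaving out control replicate 1, 2 or 3, 278, 204 and 261 genes rose and 297, 214 and 262 fell, and without suppressed replicate 2, 350 rose and 372 fell. The calls that held in all 6 fits without 1 library were 189 rises and 207 falls.

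**Figure D1:**
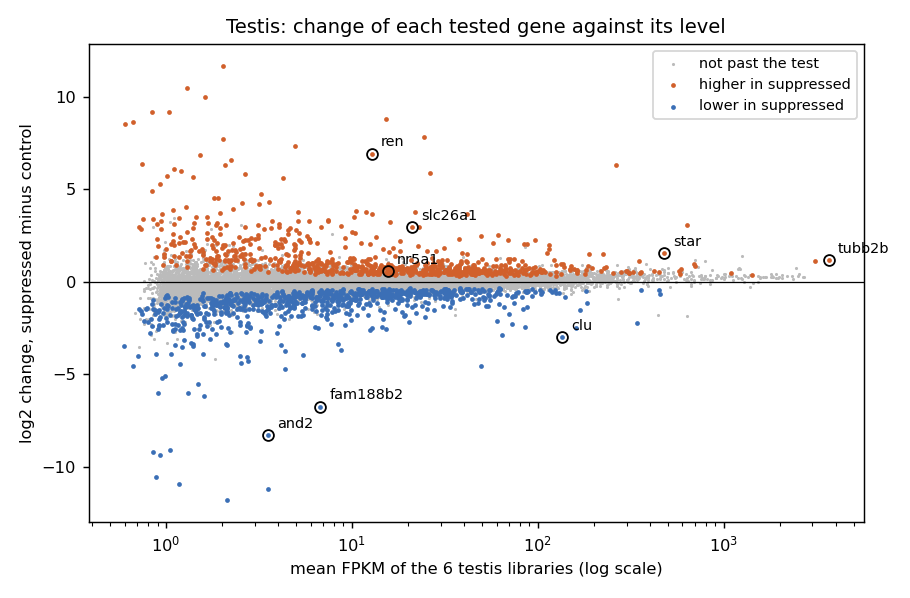
Log2 change (suppressed minus control) of each of 14368 tested genes against its mean FPKM over the 6 testis libraries (log axis), with the 755 genes that rose in orange, the 816 that fell in blue and circles on 8 named genes. The target nr5a1, one of these 8, lies at 0.58 and is not past the test, and the widest changes lie among genes of low mean FPKM.

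The target gene itself did not pass the test. nr5a1 (GL831302.1, bases 867944 to 883455) stood at 9.26, 11.8 and 17.9 against 23.7, 24.3 and 6.34 FPKM, so 2 suppressed libraries lay above and 1 below all controls (log2 change 0.58, SE 0.44, adjusted p = 0.415). Permuting the 6 FPKM values exactly (two-sided) gave p = 0.4, where 3 against 3 libraries cannot give less than 0.1. Without suppressed replicate 3 the gene was higher (log2 change 0.97, adjusted p = 0.00592). No source used here states the strand setting, and sense and antisense reads of nr5a1 could therefore not be told apart. On both sides of nr5a1 the nearest tested genes also did not pass. The orphan nuclear receptor nr6a1a of germ cells stood at 2.99, 3.22 and 3.53 against 2.31, 1.81 and 1.35 FPKM (adjusted p = 0.101). The cell polarity gene crb2b stood at 1.01, 1.13 and 1.78 against 1.85, 2.46 and 1.71 FPKM (adjusted p = 0.0842). The reads counted for nr5a1 thus showed no called decrease, which does not settle the level of its own RNA. For this reason "suppressed" is used below only as the name on the label. Each direction is between libraries labelled suppressed and control. Further along the scaffold tubb2b was called, as given below.

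Among called genes with a symbol of their own, at least 5 FPKM in the higher group and no overlap of the groups, the largest rise was that of ren, renin, the protease that cuts angiotensinogen. It stood at 0.307, 0.0308 and 0.340 against 31.1, 34.2 and 10.6 FPKM, with every suppressed library over 10 FPKM and every control library under 1 (log2 change 6.93, SE 0.71, adjusted p = 0.00141). Angiotensinogen itself (agt), its substrate, was among the largest falls, at 9.34, 6.53 and 8.55 against 0.316, 0.612 and 0.726 FPKM (log2 change -3.75, SE 0.37, adjusted p = 0.00121). The substrate was under 1 FPKM in the libraries in which the protease was over 10. In ovary, agt had a mean of 18.3 FPKM in control and 0.0527 in suppressed libraries, and ren of 0.0320 and 0.122. A link between these changes was not tested. The sulphate transporter slc26a1 stood at 5.52, 4.99 and 5.01 against 38.4, 37.7 and 34.5 FPKM (log2 change 2.94, SE 0.11, adjusted p = 4.21e-05). ADAMTS14, a protease that trims procollagen, stood at 5.59, 5.40 and 5.85 against 40.1, 39.99 and 41.3 FPKM (log2 change 2.97, SE 0.11, adjusted p = 4.21e-05). Both were nearly level within each group, suppressed replicate 3 included. ADAMTS14 shares 973 bases with ENSONIG00000016122 on the other strand, which stood at 131, 134 and 157 against 1559.9, 1422 and 398 FPKM, so their reads could be mixed, which was not tested.

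Other genes that rose were read at under 3 FPKM in every control library. They included the lectin gene CLEC18A (0.221, 0.322 and 0.527 against 8.03, 7.02 and 5.25 FPKM), the neuronal adhesion gene lrfn5b (0.464, 0.727 and 1.09 against 9.58, 8.99 and 10.1 FPKM) and acy3.2, an aminoacylase (1.74, 1.82 and 1.77 against 16.2, 21.9 and 18.02 FPKM). Ictacalcin (icn), a calcium-binding protein of the S100 family, stood at 1.05, 1.87 and 1.39 against 13.1, 10.4 and 17.04 FPKM, and gyg1a, the glycogenin that starts glycogen chains, at 1.01, 0.951 and 2.47 against 15.98, 15.3 and 8.93 FPKM. The groups of these genes were separate, as the rule that picked them required. The log2 changes ran from 3.29 to 4.32, with adjusted p from 0.000155 to 0.00306. The membrane protein gene gpr137bb (log2 change 3.11, SE 0.32, adjusted p = 0.00146), the lipid-binding trafficking factor unc119a (log2 change 2.96, SE 0.49, adjusted p = 0.00960) and lengsin (lgsn), a relative of glutamine synthetase (log2 change 2.93, SE 0.32, adjusted p = 0.00182) also rose. The skeletal muscle actin acta1a stood at 4.29, 5.76 and 9.08 against 139, 75.1 and 16.2 FPKM (log2 change 3.69, SE 0.69, adjusted p = 0.0156), a wide range within the suppressed group, and its call was lost without control 1, 2 or 3 or suppressed 2 (highest adjusted p 0.0879). The call of unc119a was lost without control 2 (highest adjusted p 0.0665), and the other 10 of the 12 largest rises kept theirs without any 1 library.

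Among the largest falls and2 (actinodin 2), a structural protein of fin rays, went to 0 counts in 2 of 3 suppressed libraries, with 7.75, 6.60 and 6.76 against 0.0517, 0 and 0 FPKM (log2 change -8.26, SE 0.71, adjusted p = 0.000687). The gene fam188b2, of a family of deubiquitinases, stood at 13.9, 14.6 and 11.7 against 0, 0.346 and 0 FPKM (log2 change -6.75, SE 0.96, adjusted p = 0.00546). Both were under 1 FPKM in every suppressed library. The conjugating enzyme gene ugt5a1 stood at 8.62, 8.27 and 8.52 against 0.0689, 0.665 and 0.178 FPKM (log2 change -4.69, SE 0.64, adjusted p = 0.00467). The semaphorin sema6ba stood at 4.81, 4.84 and 6.10 against 0.160, 0.331 and 0.266 FPKM (log2 change -4.26, SE 0.27, adjusted p = 0.000277). The peptide gene agrp, an antagonist of melanocortin receptors in the brain, stood at 9.72, 6.53 and 6.75 against 0.296, 0.495 and 1.17 FPKM (log2 change -3.40, SE 0.55, adjusted p = 0.00861). It shares 544 bases with zgc:136461 on the other strand, which had means of 0.809 FPKM in control and 0.0406 in suppressed libraries. Their reads could be mixed, which was not tested. The transcriptional co-regulator cited4a stood at 13.3, 14.2 and 18.7 against 1.58, 2.08 and 0.573 FPKM (log2 change -3.35, SE 0.39, adjusted p = 0.00237). In each of these the highest suppressed library lay below the lowest control, as the rule that picked them required.

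Clusterin (clu), a secreted chaperone, was the most abundant of the largest falls, at 249, 224 and 255 against 29.5, 23.8 and 30.7 FPKM (log2 change -2.99, SE 0.16, adjusted p = 0.000117). The prostaglandin D synthase ptgdsb.1, which in the mammalian testis is made by Sertoli and Leydig cells, stood at 108, 120.3 and 113 against 10.5, 14.6 and 17.03 FPKM (log2 change -2.90, SE 0.20, adjusted p = 0.000353). Both genes were at a like level in all 3 suppressed libraries. The mesenchymal transcription factor twist2 (16.9, 23.2 and 24.8 against 3.89, 3.27 and 2.76 FPKM) and psmb8a, a subunit of the immunoproteasome (22.5, 26.7 and 29.8 against 5.07, 6.01 and 1.73 FPKM), fell by 2.59 and 2.53 on the log2 scale (adjusted p = 0.00101 and 0.00711). The neuronal membrane gene sez6a fell by 2.65 (adjusted p = 0.0462), a call lost without control 1, 2 or 3 or suppressed 1 or 2 (highest adjusted p 0.162). The other 11 of the 12 largest falls were called without any 1 library.

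**Figure D2:**
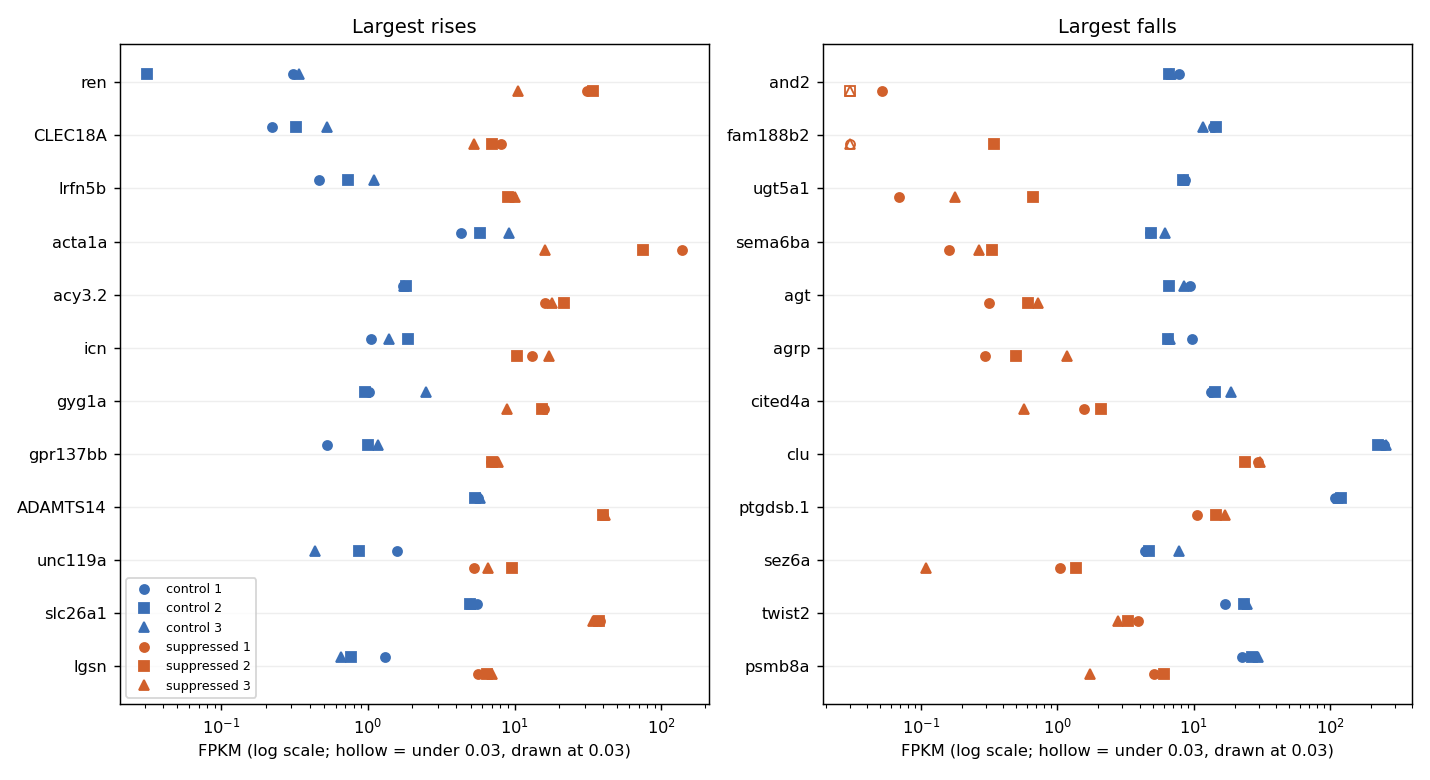
FPKM (log axis) of the 12 genes that rose most (left) and the 12 that fell most (right) in each testis library, with blue for control, orange for suppressed and a marker shape for each replicate number; hollow points lie under 0.03 FPKM and are drawn there. No gene shown has overlapping groups, as the rule required, and acta1a spans 16.2 to 139 FPKM within the suppressed group.

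Of the called genes with a symbol of their own, the 8 most abundant in each direction were as follows. The beta tubulin tubb2b, a subunit of microtubules and the most abundant gene called, stood at 2671, 2412 and 2129.6 against 4251, 4351 and 6223 FPKM (log2 change 1.16, SE 0.21, adjusted p = 0.0135), highest in suppressed replicate 3, and its call was lost without control 2 or 3 (highest adjusted p 0.0791). The germ line RNA helicase ddx4 (vasa) stood at 543, 495 and 460.3 against 827, 836 and 982 FPKM (log2 change 0.94, SE 0.14, adjusted p = 0.00728) and lost its call without control 2 (highest adjusted p 0.0566). The ribosomal protein rps12 stood at 592, 545 and 450.1 against 804, 819 and 997 FPKM (log2 change 0.84, SE 0.17, adjusted p = 0.0190), a call lost without control 2 or 3 (highest adjusted p 0.0935). All 3 genes were higher in each suppressed library than in each control, as were 746 of the 755 genes called higher. The cholesterol carrier star followed another order, with 213, 238 and 314 against 889, 871 and 336 FPKM, so that replicate 3 came close to the controls (log2 change 1.55, SE 0.32, adjusted p = 0.0232), and it was not called without control 1, 2 or 3 or suppressed 1 or 2 (highest adjusted p 0.118). The RNA-binding protein cirbpa, rplp0, calmodulin calm3a and the ATP synthase subunit atp5f1 also rose, by 0.39 to 0.52 on the log2 scale, each lost without any 1 library other than suppressed replicate 3 (at most adjusted p = 0.207).

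Of the abundant genes that fell, txnipa, an inhibitor of thioredoxin, stood at 241, 259 and 266 against 95.1, 91.3 and 63.97 FPKM (log2 change -1.51, SE 0.14, adjusted p = 0.000936) and, like clu, was called without any 1 library. The peptide hormone gene ccka (cholecystokinin) stood at 167, 163 and 225 against 78.01, 123 and 89.1 FPKM (log2 change -0.82, SE 0.18, adjusted p = 0.0289) and lost its call without control 1, 2 or 3 or suppressed 1 (highest adjusted p 0.110). The tight junction gene cldn11a, of the Sertoli cell barrier, stood at 144, 159 and 179.8 against 105, 106 and 87.8 FPKM (log2 change -0.58, SE 0.11, adjusted p = 0.0161) and lost it without control 2 or 3 or suppressed 2 (highest adjusted p 0.0866). In ccka and cldn11a the groups were close to each other but did not overlap. A further 4, the ATP synthase subunit atp5o, the retinol-binding protein rbp7b, fam118b and the spindle protein prc1b, fell by 0.43 to 0.62 on the log2 scale. All of these calls were lost without control 1, 2 or 3 or suppressed 2, and all but that of rbp7b also without suppressed 1 (highest adjusted p 0.159). The gene fam118b shares 596 bases with srpr on the other strand, so their reads could be mixed. Of these 16 genes, 2 kept the call without any 1 library.

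A further set was read in 1 group only. Of the genes tested, 7 had 0 counts in all control libraries and at least 1 FPKM on average in the suppressed ones, and 7 the reverse. A gene at 0 in 1 group was tested only where all 3 libraries of the other group reached 1 FPKM. The separation of these genes therefore follows from how they were picked and adds no support. Among the first were the citrate and dicarboxylate transporter slc13a2 (5.15, 4.98 and 2.08 FPKM in suppressed libraries, at least 398-fold higher than 3 counts over the control group), fgf11a, an intracellular relative of fibroblast growth factors (1.30, 1.55 and 1.15 FPKM, at least 47.7-fold), and a copy of the matrix gene MFAP4 (2.16, 2.79 and 4.73 FPKM, at least 115-fold). Of these, slc13a2 shares 229 bases with a copy of unc119b on the other strand, so their reads could be mixed. The reverse set held a copy of the zinc finger gene znf507 (ENSONIG00000020209), at 3.29, 4.71 and 4.83 FPKM in control libraries and 0 in suppressed ones, at least 480.5-fold lower, and zgc:110333 (8.01, 6.29 and 6.95 FPKM, at least 305-fold lower). Of the 14 genes, 10 have no gene symbol or only a clone name. In ovary the znf507 copy went the other way, with a mean of 0 FPKM in control and 8.41 in suppressed libraries. It lies on the same scaffold as nr5a1 (GL831302.1, bases 135002 to 139506). Of the genes between them, those nearest nr5a1 (golga1, rpl35, olfml2a and nr6a1a) did not pass the test. Any genes between the znf507 copy and golga1 are not given here.

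Genes that share a symbol, or whose symbols differ only in a final a or b, moved in opposite directions in 10 pairs. How many such pairs moved the same way is not given here. For the splicing and decay factor LSM3, the copy ENSONIG00000000370 stood at 0, 0.168 and 0 FPKM in control and 25.4, 35.9 and 30.2 in suppressed libraries while ENSONIG00000021369 stood at 114, 129.8 and 119.9 FPKM in control and 65.2, 68.8 and 61.9 in suppressed libraries. The first appeared where the second fell by 0.78 on the log2 scale (adjusted p = 0.00567). For pop7, a subunit of RNase P, ENSONIG00000020798 stood at 1.08, 1.74 and 1.52 FPKM in control and 17.8, 15.7 and 25.2 in suppressed libraries and ENSONIG00000020800 at 66.3, 74.2 and 59.0 FPKM in control and 34.1, 29.2 and 41.2 in suppressed libraries. The calcium pump atp2b1b had a copy (ENSONIG00000008230) at 21.1, 19.8 and 20.2 against 36.5, 37.7 and 44.4 FPKM and another (ENSONIG00000003941) at 4.16, 4.35 and 3.61 against 1.65, 0.975 and 1.27 FPKM. In these 3 pairs each copy's groups were fully separate, which adds no support because only called genes were paired. Among all called genes the groups did not overlap in 746 of the 755 rises and in all 816 falls. Copies can share reads, and no source used here says how reads that fit both were counted.

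Certain changes outside the naming rule were picked after their values were seen. A copy of the leukocyte chemotaxin LECT2 (ENSONIG00000019120) stood at 109, 91.2 and 84.2 against 3.76, 4.20 and 3.09 FPKM (log2 change -4.57, SE 0.19, adjusted p = 4.21e-05). It lies on GL831209.1, bases 2330969 to 2332194, and on the same scaffold ch25h, which makes 25-hydroxycholesterol, stood at 7.23, 5.24 and 4.93 against 0.605, 0.573 and 0.557 FPKM (log2 change -3.20, SE 0.26, adjusted p = 0.000598) in a run of 3 neighbouring genes that all fell. The 8 tested genes between LECT2 and ch25h were not called, which does not show that they were unchanged. A link between these falls was not tested. Over all scaffolds 13 runs of 3 neighbouring tested genes moved the same way (7 higher and 6 lower) and none was longer. The number of such runs to be awaited from the share of genes called was not worked out. A copy of brf1b, named for a subunit of RNA polymerase III initiation, stood at 288, 272 and 271 against 33.4, 39.1 and 60.1 FPKM (log2 change -2.52, SE 0.25, adjusted p = 0.00118). The unnamed gene ENSONIG00000008894 stood at 0.0350, 0.159 and 21.7 against 469.8, 639.5 and 446 FPKM, with 1 control library far above the other 2, and its call was lost without control 1 or 2 or suppressed 1 or 2 (highest adjusted p 0.108). These named falls were called without any 1 library.

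Library by library, the 3 suppressed testes were not alike. Against the control range, 3715 genes were above all controls and 6342 below in suppressed replicate 1, 4294 and 5627 in replicate 2, and 4104 and 7950 in replicate 3. All 3 libraries lay above in 1801 genes (12.5%) and all 3 below in 3796 (26.4%). These are deposited FPKM, scaled by library total, and the excess of lower genes depends on that scaling. On TMM-scaled log2 CPM, a comparison added after the data were seen, all 3 lay above in 2677 genes (18.6%) and below in 2765 (19.2%). In 611 genes (4.25%) replicates 1 and 2 were above all controls and replicate 3 below all of them, and in 275 (1.91%) the reverse held. None of these genes was called. The median absolute distance from the control mean was 0.26, 0.25 and 0.45 log2 units in the 3 libraries. Among the called genes the median distances of the 3 libraries were 0.76, 0.78 and 0.94 for the rises and -0.91, -0.89 and -1.09 for the falls.

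The 8 genes lowest in suppressed replicate 3 are described here without a test because they were picked by that distance. The LIM protein csrp1a of smooth muscle stood at 7.59, 7.78 and 19.6 against 30.3, 30.4 and 0.649 FPKM, and the matrix collagen col6a1 at 14.98, 20.8 and 31.4 against 48.01, 31.2 and 1.82 FPKM. Replicates 1 and 2 exceeded the highest control in csrp1a, and replicate 3 was below the lowest in both genes. A further actin gene, ACTA1, stood at 604, 691 and 860.5 against 3023, 2084 and 291 FPKM, and the type I collagens col1a1b and col1a2 at 20.004, 28.2 and 34.7 against 84.7, 59.5 and 5.82 FPKM and at 21.9, 27.5 and 33.05 against 83.2, 55.9 and 6.77 FPKM. The steroid hydroxylase cyp17a2 stood at 259, 311 and 501 against 239, 282 and 19.3 FPKM, so here no suppressed library exceeded the highest control. Myosin light chain kinase (mylka) and COL6A3 completed the 8 lowest. The 8 genes highest in replicate 3 differed less, by 1.00 to 1.33 log2 units against 2.93 to 4.25 for the lowest, and included dpy30, a subunit of histone methyltransferases (163, 117 and 108 against 127, 151 and 280.0 FPKM) and trappc1 of vesicle transport (77.8, 72.01 and 46.8 against 55.4, 74.1 and 140.3 FPKM).

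**Figure D3:**
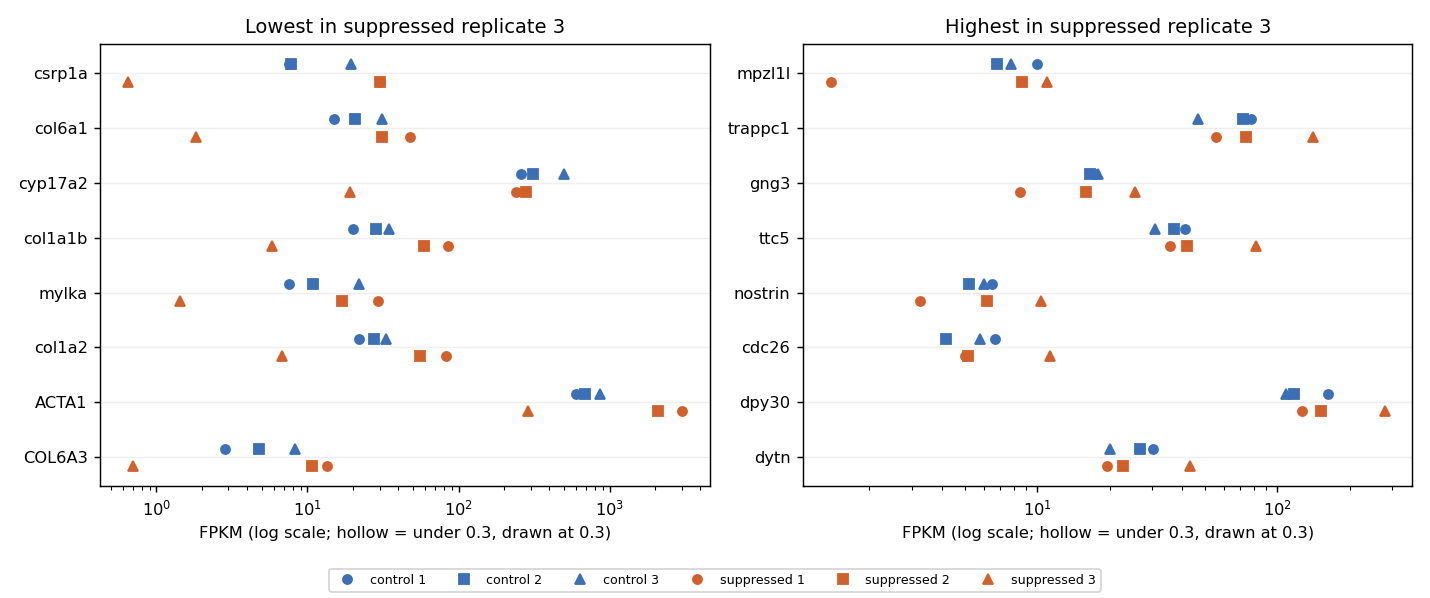
FPKM (log axis) in each testis library of the 8 genes lowest (left) and the 8 highest (right) in suppressed replicate 3 against replicates 1 and 2, with blue for control, orange for suppressed and the triangle for replicate 3. In the left panel the orange triangle is left of every other point of its gene, as in ACTA1 with 291 FPKM against 604 to 3023.

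Summed levels of cell type markers also differed between the suppressed libraries. The 8 stroma and smooth muscle genes in the table summed to 556, 696 and 915 FPKM in control libraries and to 2236, 1717 and 434 in suppressed ones, so replicate 3 was the lowest of the 6. That sum was carried by tagln (393, 506 and 676 against 1731, 1272 and 198 FPKM), and col1a2 and myh11a had the same order. Other members did not follow it. Decorin (dcn) was higher in every suppressed library than in any control, and pdgfra lay within the control range in replicates 1 and 2. The 3 Leydig cell markers in the table summed to 475, 538 and 695 in control and 1729, 1706 and 649 in suppressed libraries. In replicate 3 star and hsd3b1 stayed above every control, while cyp11a2 (136 FPKM) lay below every control. The gene hsd3b1 stood at 107, 119 and 140 against 413, 383 and 177 FPKM (log2 change 1.51, SE 0.27, adjusted p = 0.0135). Its call was lost without control 1, 2 or 3 or suppressed 2 (highest adjusted p 0.0792). The 5 Sertoli cell markers summed to 1022, 1068 and 1105 in control and to 1843, 1680.3 and 896 in suppressed libraries. The Sertoli sum was carried by gsdf (431, 463 and 445 against 1280.3, 1132 and 440.0 FPKM), which lay within the control range in replicate 3, while amh stood at 165, 182 and 214 against 162, 142 and 35.4 FPKM. The other Sertoli markers did not follow it, as dmrt1 was highest in replicate 3 and sox9a was raised and cldn11a lowered in all 3 suppressed libraries. Among germ line markers, sycp3 and ddx4 were highest in replicate 3. The germ line genes dazl (70.4, 83.8 and 74.8 against 103, 86.9 and 78.7 FPKM) and piwil1 (1067, 1025 and 1021 against 1326, 1132 and 1109 FPKM) were instead lowest in replicate 3 among the suppressed libraries. Their part in the changes given here was not tested.

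Sums of markers of cells that a dissected testis could carry along were as follows. Erythrocyte markers (4 in the table, 10.1 to 22.8 against 4.35 to 7.58 FPKM), exocrine pancreas markers (2 in the table, 29.99 to 43.3 against 6.47 to 13.9 FPKM), liver markers (9 in the table, 7.55 to 8.47 against 4.47 to 5.21 FPKM) and adipocyte markers (2 in the table, 102 to 124 against 60.5 to 71.7 FPKM) each summed lower in every suppressed library than in any control, and their part in the falls was not tested. For comparison, 26.4% of all tested genes lay below every control in all 3 suppressed libraries on the same deposited FPKM. On TMM-scaled log2 CPM this share was 19.2%. Single members of these marker sets did not all lie below every control. The adipocyte sum was lower through lpl (63.4, 77.8 and 93.4 against 39.7, 34.8 and 14.6 FPKM), while cidec (38.4, 35.1 and 30.5 against 31.9, 33.6 and 45.9 FPKM) overlapped between the groups, as did gata1a (1.58, 1.61 and 0.761 against 1.46, 0.167 and 0.562 FPKM) among the erythrocyte markers and fga (1.03, 0.874 and 0.991 against 0.793, 1.06 and 1.02 FPKM) among those of liver. One liver marker was at 0 in all 6 libraries. The ranges overlapped for leukocytes (8 in the table, 196 to 238 against 214 to 349.6 FPKM), endothelium (6 in the table, 20.2 to 29.5 against 11.1 to 20.5 FPKM), skeletal muscle (5 in the table, 66.7 to 85.8 against 52.05 to 191 FPKM) and kidney (4 in the table, 0.612 to 1.19 against 1.04 to 1.70 FPKM). They also overlapped for markers of granulosa cells (2 in the table, 1.64 to 2.94 against 1.16 to 3.16 FPKM), oocytes (5 in the table, 75.7 to 89.4 against 76.4 to 103 FPKM) and spermatids (5 in the table, 251 to 284 against 251 to 384 FPKM). The leukocyte sum was carried by cd74b (179, 213 and 220 against 276, 325 and 204 FPKM). Of its other members, csf1ra (1.95, 2.12 and 2.60 against 1.35, 1.44 and 0.298 FPKM) and cd8a, under 1 FPKM throughout, lay below every control in all suppressed libraries.

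The genes were also grouped into 55 lists by the stem of their symbols, which hold a few members that only share a stem. For each list the counts rest on edgeR's test with adjustment over all 14368 genes, and are read against 5.25% of all genes higher and 5.68% lower and a median change of 0.00. Square brackets give first the members that rose and fell without suppressed replicate 3, and then their range in the 5 fits without any 1 other library. The counts describe the lists, which were not tested as sets. As the groups did not overlap in 746 of the 755 rises and in all 816 falls, separate groups of a called member add no support. Of genes named below, acsl4a, c7a and map3k8 each overlap a gene on the other strand, so their reads could be mixed with its reads.

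DNA replication genes had the largest share of rises. Of these genes, 53 of 53 members in the table were tested, 14 rose, 0 fell and 39 did not pass [24 and 0, 2 to 10 and 0], with a median log2 change of 0.44. The ribonucleotide reductase subunit rrm1, which makes DNA building blocks, stood at 74.1, 76.4 and 70.7 against 122, 110.1 and 115 FPKM (log2 change 0.76, SE 0.11, adjusted p = 0.00519) and was called without any 1 library. The sliding clamp pcna stood at 154, 137 and 125 against 227, 219.7 and 249 FPKM (log2 change 0.86, SE 0.14, adjusted p = 0.00927) and lost its call without control 2 (highest adjusted p 0.0665). Each was higher in all 3 suppressed libraries. The polymerase subunit pold2 overlaps ENSONIG00000010802 on the other strand by 2744 bases, and its rise was lost without control 1 or 2 or suppressed 2 (highest adjusted p 0.0857). The rise of dhfr, of folate metabolism, was lost without control 1 or 3 or suppressed 2 (highest adjusted p 0.0686). For cyclins, mitotic kinases and kinetochore genes, 80 of 84 members in the table were tested, 5 rose, 1 fell and 74 did not pass [14 and 3, 1 to 4 and 0]. A copy of the S phase cyclin ccne2 went from 8.57 ± 0.386 to 13.8 ± 0.733 FPKM (mean ± SD of 3 libraries in each group, as in all such values below) (log2 change 0.80, SE 0.12, adjusted p = 0.00595) and held without any 1 library. Histone genes, 15 in the table, had 1 rise, 0 falls and 9 not past the test [5 and 0, 0 to 1 and 0], at a median of 0.58.

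Genes of energy supply were higher in part. For mitochondrial respiration, 85 of 86 members in the table were tested, 10 rose, 1 fell and 74 did not pass [20 and 2, 0 to 7 and 0] at a median of 0.43, and the list's median distance from the control mean was 0.27, 0.25 and 0.70 in the 3 suppressed libraries. The cytochrome oxidase subunit cox5aa stood at 69.5, 63.8 and 61.5 against 102, 109.6 and 89.3 FPKM (log2 change 0.73, SE 0.11, adjusted p = 0.00568), a call lost without control 2 (highest adjusted p 0.0526). The succinate dehydrogenase subunit sdha went from 52.98 ± 1.58 to 73.97 ± 3.80 FPKM (log2 change 0.60, SE 0.11, adjusted p = 0.0142), a call lost without control 1, 2 or 3 (highest adjusted p 0.0988). In glycolysis, 31 of 37 members in the table were tested, 6 rose, 1 fell and 24 did not pass [9 and 2, 1 to 3 and 1]. A copy of hexokinase hk1 stood at 1.72, 2.59 and 2.65 against 10.2, 9.79 and 8.74 FPKM (log2 change 2.16, SE 0.17, adjusted p = 0.00052). The gene hk2 went from 25.9 ± 1.31 to 37.7 ± 2.06 FPKM. A copy of gapdh stood at 263, 272 and 248 against 127, 113 and 86.7 FPKM (log2 change -1.16, SE 0.13, adjusted p = 0.00232). So hk1 and hk2, for the first enzyme of the pathway, rose, and this copy of gapdh fell. The hk1 and gapdh calls held without any 1 library, and hk2 was lost without control 2 (highest adjusted p 0.0665). The list member eno1b also rose, from 54.2 ± 2.67 to 78.1 ± 3.27 FPKM (log2 change 0.65, SE 0.10, adjusted p = 0.00891). Its call was lost without control 2 (highest adjusted p 0.0705). For lipid handling, 57 of 78 members in the table were tested, 6 rose, 3 fell and 48 did not pass [14 and 5, 1 to 4 and 1 to 2]. The fatty acid ligase acsl4a went from 61.5 ± 5.64 to 109 ± 12.8 FPKM (log2 change 0.93, SE 0.11, adjusted p = 0.00283). The lipoprotein apoeb went from 28.4 ± 3.49 to 8.57 ± 1.22 FPKM (log2 change -1.62, SE 0.17, adjusted p = 0.00158), and both were called without any 1 library.

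In lists of protein synthesis and breakdown the share called ran from 2.70% (tRNA synthetases) to 10% (proteasome), beside 10.9% of all genes. For cytosolic ribosomal proteins, 86 of 87 members in the table were tested, 5 rose, 1 fell and 80 did not pass [9 and 2, 0 to 4 and 0], although 84.9% of the tested members had a change above 0 against 50.1% of all genes. Mitochondrial ribosomal proteins (2 rises, 0 falls and 66 not past the test [4 and 0, 0 to 1 and 0]) had 94.1% above 0. Without a passed test these are shifts of direction only, and both lists had their highest median in suppressed replicate 3 (0.44 and 0.58). For the proteasome, 50 of 52 members in the table were tested, 4 rose, 1 fell and 45 did not pass [8 and 2, 0 to 2 and 1]. The subunit psmd10 went from 70.2 ± 4.34 to 101 ± 8.22 FPKM (log2 change 0.65, SE 0.13, adjusted p = 0.0200), a call lost without control 1, 2 or 3 (highest adjusted p 0.0933). The list's single fall was psmb8a, given above, which replaces a standard subunit in cells that present antigens. Chaperones had 3 rises, 0 falls and 96 not past the test [11 and 6, 0 to 1 and 0]. The secretory pathway had 2 rises, 1 fall and 53 not past the test [6 and 4, 0 to 1 and 0]. Translation factors had 1 rise, 2 falls and 65 not past the test [7 and 4, 0 and 0 to 3]. The tRNA synthetases had 1 rise, 0 falls and 36 not past the test [4 and 0, 0 and 0]. Ubiquitin conjugation and removal had 4 rises, 3 falls and 85 not past the test [4 and 8, 1 to 3 and 0 to 3]. Of these, the ubiquitin hydrolase uchl3 stood at 16.04, 16.7 and 17.5 against 31.8, 35.4 and 44.9 FPKM (log2 change 1.28, SE 0.17, adjusted p = 0.00398) and was called without any 1 library.

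Among nuclear machinery, splicing factors had 1 rise and 0 falls in 60 tested [8 and 1, 0 to 2 and 0]. The gene snrpa1 of the U2 particle went from 27.3 ± 1.48 to 48.8 ± 5.76 FPKM (log2 change 0.96, SE 0.15, adjusted p = 0.00698), a call lost without control 2 (highest adjusted p 0.0526). For RNA polymerases and general transcription, 91 of 92 members in the table were tested, 5 rose, 3 fell and 83 did not pass [6 and 6, 1 to 4 and 0 to 2]. The gene polr3e of RNA polymerase III stood at 16.6, 16.7 and 15.98 against 26.4, 24.9 and 23.2 FPKM (log2 change 0.71, SE 0.09, adjusted p = 0.00416) and was called without any 1 library. Chromatin modifiers had 1 rise, 5 falls and 92 not past the test [2 and 16, 0 to 1 and 1 to 6]. The histone methyltransferase kmt2d stood at 15.9, 19.6 and 21.8 against 9.68, 10.1 and 9.67 FPKM (log2 change -0.84, SE 0.12, adjusted p = 0.00574) and was also called without any 1 library. Zinc finger genes had 1 rise, 13 falls and 112 not past the test [6 and 21, 1 and 7 to 13]. In these, copies of znf703 (from 18.1 ± 1.72 to 6.87 ± 0.211 FPKM) and KLF11 (from 44.6 ± 1.73 to 16.8 ± 1.11 FPKM) fell and znf207a (from 7.76 ± 0.529 to 25.6 ± 1.93 FPKM) rose, with adjusted p of 0.00052, 0.000647 and 0.00052, and all 3 were called without any 1 library. Nucleoporins had 0 rises, 1 fall and 21 not past the test [1 and 1, 0 and 1], the fall being ndc1, an anchor of the nuclear pore (72.5, 80.3 and 73.3 against 41.4, 38.3 and 27.7 FPKM) (log2 change -0.97, SE 0.14, adjusted p = 0.00519), kept without any 1 library.

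In lists of the germ line, meiosis, the sperm tail and microtubules the share called ran from 2.04% (axoneme) to 12.3% (tubulins and kinesins), beside 10.9% of all genes. For meiosis and recombination there were 1 rise, 1 fall and 32 not past the test [1 and 1, 0 to 1 and 0]. For piRNA and Tudor proteins there were 1 rise, 1 fall and 19 not past the test [2 and 1, 0 to 1 and 0 to 1]. Of 49 axoneme and flagellum genes tested 1 rose and 0 fell [2 and 8, 1 to 2 and 0], the dynein heavy chain dnah1, at 8.07, 7.99 and 8.82 against 22.1, 23.5 and 24.9 FPKM (log2 change 1.62, SE 0.11, adjusted p = 0.000353), called without any 1 library. The median of the list was 0.00. For ciliary transport there were 2 rises, 1 fall and 51 not past the test [3 and 4, 1 to 3 and 0 to 1]. The gene wdr19, which overlaps rfc1 on the other strand by 4198 bases, went from 14.1 ± 0.800 to 23.3 ± 2.36 FPKM (log2 change 0.85, SE 0.13, adjusted p = 0.00728). Tubulins and kinesins had 3 rises, 5 falls and 57 not past the test [4 and 7, 0 to 1 and 1 to 3]. Of these the kinesin kif3cb went from 3.22 ± 0.199 to 1.02 ± 0.291 FPKM (log2 change -1.55, SE 0.23, adjusted p = 0.00698) and was called without any 1 library.

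Genes of matrix, junctions and contraction changed in both directions. For laminins, integrins and other matrix, 66 of 80 members in the table were tested, 6 rose, 4 fell and 56 did not pass [13 and 8, 3 to 5 and 3 to 5]. Decorin (dcn), a small proteoglycan, stood at 93.6, 102 and 119 against 313, 301 and 201 FPKM (log2 change 1.48, SE 0.16, adjusted p = 0.00182). The gene mgp, an inhibitor of calcification, stood at 1.66, 2.22 and 2.43 against 10.997, 7.37 and 10.6 FPKM (log2 change 2.31, SE 0.27, adjusted p = 0.00239). A copy of tenascin C (tnc) stood at 1.69, 2.37 and 2.09 against 0.455, 0.433 and 0.374 FPKM (log2 change -2.17, SE 0.21, adjusted p = 0.00116). All 3 were called without any 1 library, and in dcn suppressed replicate 3 was the lowest of its group. The list also holds tnrc6c2, a factor of microRNA silencing that shares the stem. For collagens, 43 of 57 members in the table were tested, 2 rose, 3 fell and 38 did not pass [12 and 6, 1 to 2 and 0 to 2]. A copy of the basement membrane collagen COL4A4 (ENSONIG00000009990) went from 1.05 ± 0.00684 to 2.38 ± 0.133 FPKM (log2 change 1.30, SE 0.14, adjusted p = 0.00181) and held without any 1 library. Of the falls, col11a1b went from 3.05 ± 0.464 to 0.913 ± 0.325 FPKM (log2 change -1.64, SE 0.27, adjusted p = 0.00961). Its call was lost without control 2 or 3 (highest adjusted p 0.0595). The collagen median was 0.14, 0.07 and -0.88 in suppressed replicates 1, 2 and 3. Matrix proteases and inhibitors (5 rises, 4 falls and 45 not past the test [8 and 8, 2 to 4 and 0 to 3]) included, besides ADAMTS14, the metalloprotease adam19b (from 3.57 ± 0.582 to 6.79 ± 0.420 FPKM) (log2 change 1.04, SE 0.15, adjusted p = 0.00561). Of their falls, serpinf1 went from 3.80 ± 0.360 to 1.71 ± 0.227 FPKM (log2 change -1.04, SE 0.18, adjusted p = 0.0119). Its call was lost without control 1 or 2 or suppressed 2 (highest adjusted p 0.0606).

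Junction proteins had 2 rises, 6 falls and 35 not past the test [3 and 7, 0 to 1 and 1 to 3]. The scaffold protein tjp1b stood at 92.7, 95.97 and 100.2 against 36.8, 34.6 and 32.4 FPKM (log2 change -1.36, SE 0.10, adjusted p = 0.000353) and was called without any 1 library. For actin, myosin and troponin, 52 of 95 members in the table were tested, 3 rose, 6 fell and 43 did not pass [14 and 8, 0 to 3 and 2 to 6]. The cytoskeletal actin ACTB stood at 56.9, 51.7 and 39.9 against 17.1, 17.4 and 19.1 FPKM (log2 change -1.36, SE 0.17, adjusted p = 0.00298). The unconventional myosin myo1eb stood at 1.63, 2.17 and 2.05 against 0.311, 0.263 and 0.324 FPKM (log2 change -2.56, SE 0.27, adjusted p = 0.00147), so these fell where acta1a rose. Both falls held without any 1 library. Protocadherins and adhesion receptors had 3 rises, 4 falls and 33 not past the test [5 and 6, 1 and 0 to 3]. The synaptic adhesion gene nlgn2a went from 1.18 ± 0.295 to 4.47 ± 0.407 FPKM (log2 change 2.04, SE 0.27, adjusted p = 0.00392).

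Of 270 solute carriers tested 14.4% were called, beside 10.9% of all genes. They had 13 rises, 26 falls and 231 not past the test [24 and 39, 6 to 11 and 8 to 22]. The glutamate transporter slc1a6 stood at 1.27, 1.25 and 1.66 against 7.47, 7.98 and 7.50 FPKM (log2 change 2.57, SE 0.16, adjusted p = 0.000263). The phosphate transporter slc34a2b stood at 11.5, 13.3 and 14.1 against 2.02, 2.87 and 2.44 FPKM (log2 change -2.29, SE 0.17, adjusted p = 0.000425). Together with slc26a1 these changes were of over 2 log2 units and held without any 1 library. Voltage-gated channels had 4 rises, 5 falls and 58 not past the test [7 and 12, 1 to 3 and 2 to 5], of 198 in the table. The potassium channel kcnh4b stood at 3.45, 3.91 and 4.40 against 0.280, 0.342 and 0.377 FPKM (log2 change -3.43, SE 0.22, adjusted p = 0.000263). The calcium channel subunit cacng3b stood at 15.5, 16.3 and 14.7 against 3.18, 2.70 and 2.69 FPKM (log2 change -2.32, SE 0.16, adjusted p = 0.000353). KCNG1 stood at 0.254, 0.648 and 0.508 against 3.01, 4.42 and 3.83 FPKM (log2 change 3.10, SE 0.35, adjusted p = 0.00216). In all 3 the groups were far apart, at low levels in 1 group. Ligand-gated and TRP channels had 5 rises, 4 falls and 41 not past the test [5 and 5, 1 to 5 and 2 to 4]. The GABA receptor subunit gabrr3b stood at 0.626, 0.774 and 0.544 against 2.74, 4.48 and 6.80 FPKM (log2 change 2.97, SE 0.39, adjusted p = 0.00393). The TRP channel gene trpc2b fell, at 2.14, 2.13 and 2.22 against 0.584, 0.703 and 0.431 FPKM (log2 change -1.81, SE 0.20, adjusted p = 0.00178). It shares 5506 bases with ENSONIG00000004262 on the other strand, so their reads could be mixed. For aquaporins and ATPase pumps there were 8 rises, 3 falls and 54 not past the test [16 and 5, 3 to 7 and 2 to 3]. The glycerol channel aqp7 stood at 0.176, 0.152 and 0.108 against 3.07, 3.26 and 4.13 FPKM (log2 change 4.55, SE 0.41, adjusted p = 0.000838). The sodium pump subunit atp1a3b stood at 20.2, 22.05 and 29.9 against 5.75, 6.01 and 4.76 FPKM (log2 change -2.01, SE 0.15, adjusted p = 0.000506). ABC transporters had 0 rises, 3 falls and 31 not past the test [3 and 6, 0 and 0 to 3].

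In enzymes of small molecules, P450 genes had 2 rises, 2 falls and 22 not past the test [5 and 3, 2 and 0 to 1]. Both rises were copies of cyp4f3, an omega-hydroxylase of fatty acids: ENSONIG00000001929 stood at 1.46, 2.000 and 1.75 against 19.3, 23.4 and 23.6 FPKM and ENSONIG00000001911 at 2.83, 2.92 and 4.05 against 37.1, 38.8 and 44.9 FPKM. They rose by 3.78 and 3.75 on the log2 scale (adjusted p = 8.75e-05 and 8.75e-05) and could share reads. Conjugation and aldehyde enzymes had 5 rises, 2 falls and 44 not past the test [10 and 3, 3 to 5 and 1 to 2]. The glutathione transferase gstm.1 went from 46.1 ± 1.92 to 80.5 ± 8.49 FPKM (log2 change 0.92, SE 0.10, adjusted p = 0.00201). Its relative gstt1b went from 94.02 ± 8.95 to 172 ± 27.95 FPKM (log2 change 0.98, SE 0.14, adjusted p = 0.00496), and both were called without any 1 library. For cathepsins and lysosome there were 2 rises, 1 fall and 30 not past the test [4 and 3, 0 to 1 and 0].

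Signalling lists had calls in both directions. Notch and Hedgehog genes had 0 rises, 4 falls and 18 not past the test [2 and 5, 0 and 1 to 4]. The hedgehog ligand ihhb stood at 2.99, 2.52 and 2.23 against 0.331, 0.373 and 0.319 FPKM (log2 change -2.79, SE 0.24, adjusted p = 0.000696) and was called without any 1 library. For Wnt and R-spondin there were 1 rise, 4 falls and 27 not past the test [4 and 5, 0 and 0 to 1]. The agonist rspo2 went from 2.70 ± 0.384 to 1.05 ± 0.0653 FPKM (log2 change -1.24, SE 0.23, adjusted p = 0.0160), a call lost without control 1 or 2 or suppressed 2 (highest adjusted p 0.100). TGF-beta, BMP and activin genes had 2 rises, 3 falls and 50 not past the test [6 and 6, 0 to 1 and 0 to 3]. The gene bmp8a rose from 1.22 ± 0.415 to 3.98 ± 0.571 FPKM (log2 change 1.82, SE 0.31, adjusted p = 0.0118), a call lost without control 2 (highest adjusted p 0.0596). The gene bmp2b went from 1.40 ± 0.0796 to 0.443 ± 0.0449 FPKM (log2 change -1.52, SE 0.29, adjusted p = 0.0169), a call lost without control 1, 2 or 3 or suppressed 2 (highest adjusted p 0.0828). Growth factors and receptor tyrosine kinases had 4 rises, 3 falls and 63 not past the test [9 and 9, 3 to 4 and 2]. The growth factor pdgfaa stood at 2.65, 4.40 and 7.07 against 0.308, 0.312 and 0.181 FPKM (log2 change -3.99, SE 0.41, adjusted p = 0.00146). The gene igfbp7, a secreted binding protein, stood at 4.04, 4.07 and 4.45 against 15.8, 17.3 and 9.72 FPKM (log2 change 1.87, SE 0.19, adjusted p = 0.00130). Their groups were separate in opposite directions and both calls held without any 1 library. Neuropeptides and hormones had 1 rise, 3 falls and 23 not past the test [1 and 4, 1 and 1 to 3], the rise being that of the receptor adcyap1r1a, which shares a stem with its ligand.

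For protein kinases there were 2 rises, 7 falls and 119 not past the test [6 and 16, 0 to 1 and 2 to 6]. For phosphatases there were 2 rises, 8 falls and 120 not past the test [10 and 14, 0 to 1 and 1 to 7]. GTPases and their regulators had 7 rises, 12 falls and 192 not past the test [9 and 21, 1 to 5 and 2 to 7]. The kinase map3k8 (from 12.7 ± 1.23 to 4.18 ± 0.746 FPKM) and the phosphatase dusp5, which acts on ERK kinases (from 30.3 ± 2.26 to 8.21 ± 2.69 FPKM), fell with adjusted p of 0.00111 and 0.00286, and held without any 1 library. G protein-coupled receptors had 3 rises, 4 falls and 38 not past the test [3 and 5, 1 to 2 and 0 to 3], of 167 in the table.

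Among transcription factors, immediate early and AP-1 genes had 1 rise, 7 falls and 37 not past the test [3 and 11, 0 to 1 and 3 to 8]. Copies of jun (36.9, 37.9 and 39.04 against 14.9, 14.8 and 9.19 FPKM) and jund (from 41.4 ± 3.01 to 20.99 ± 3.36 FPKM) and the gene fosab (from 3.45 ± 0.355 to 0.915 ± 0.328 FPKM) fell with adjusted p of 0.00276, 0.00628 and 0.00678, and held without any 1 library. These 3 encode parts of the AP-1 complex. Nuclear receptors had 3 rises, 4 falls and 45 not past the test [6 and 7, 0 to 1 and 2 to 4]. The circadian repressor nr1d2a stood at 23.7, 25.1 and 24.95 against 11.9, 12.7 and 10.3 FPKM (log2 change -0.97, SE 0.09, adjusted p = 0.00111). The gene nr2f6b stood at 14.2, 15.3 and 17.1 against 6.95, 6.39 and 4.98 FPKM (log2 change -1.24, SE 0.17, adjusted p = 0.00457), and both were lower in every suppressed library and called without any 1 library. Fox, Sox, Gata and Dmrt genes had 1 rise, 3 falls and 33 not past the test [2 and 5, 1 and 0], the rise being sox9a, a factor of Sertoli cell development (2.65, 2.46 and 2.72 against 12.2, 9.53 and 9.49 FPKM) (log2 change 2.11, SE 0.15, adjusted p = 0.000353). Homeobox and related genes had 1 rise, 1 fall and 39 not past the test [1 and 3, 1 and 0]. The gene tbx1, a T-box rather than a homeobox factor, stood at 1.92, 2.18 and 2.17 against 11.1, 11.2 and 6.42 FPKM (log2 change 2.30, SE 0.20, adjusted p = 0.000718). Both rises held without any 1 library.

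Complement and coagulation genes had the largest share of members called, 33.3%, with 4 rises, 6 falls and 20 not past the test [4 and 6, 2 to 3 and 3 to 5]. Besides clu, complement c7a, of the membrane attack complex, stood at 24.1, 24.6 and 25.5 against 5.44, 5.58 and 1.69 FPKM (log2 change -2.45, SE 0.37, adjusted p = 0.00695). The clotting factor f8 stood at 38.5, 40.3 and 46.02 against 16.5, 14.2 and 10.2 FPKM (log2 change -1.50, SE 0.16, adjusted p = 0.00146). The complement inhibitor CFI moved the other way, at 0.0853, 0.0537 and 0 against 3.86, 4.49 and 4.90 FPKM (log2 change 6.56, SE 0.64, adjusted p = 0.00121), with 0 counts in 1 control library. All 3 calls held without any 1 library. The list spans unlike roles, since clu and CFI restrain complement and c7a carries it out. Cytokine genes had 1 rise, 2 falls and 47 not past the test [2 and 6, 1 and 2]. The gene socs3a, a brake on cytokine signalling, stood at 107, 112 and 147 against 22.96, 34.8 and 12.04 FPKM (log2 change -2.29, SE 0.32, adjusted p = 0.00496). Its relative socs3b stood at 19.9, 20.3 and 28.4 against 8.15, 7.15 and 5.38 FPKM (log2 change -1.62, SE 0.21, adjusted p = 0.00375). Interferon response and antigen presentation genes had 0 rises, 4 falls and 33 not past the test [1 and 5, 0 and 2 to 4], with tapbp.2, which loads peptides onto MHC molecules, at 24.98, 25.6 and 26.2 against 10.6, 9.19 and 5.88 FPKM (log2 change -1.47, SE 0.18, adjusted p = 0.00335). Leukocyte surface genes and lectins had 4 rises, 0 falls and 28 not past the test [7 and 1, 2 to 4 and 0 to 1]. A copy of cd109 stood at 0.389, 0.335 and 0.142 against 3.39, 3.85 and 3.55 FPKM (log2 change 3.72, SE 0.37, adjusted p = 0.00121). The socs3, tapbp.2 and cd109 calls held without any 1 library.

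**Figure D4:**
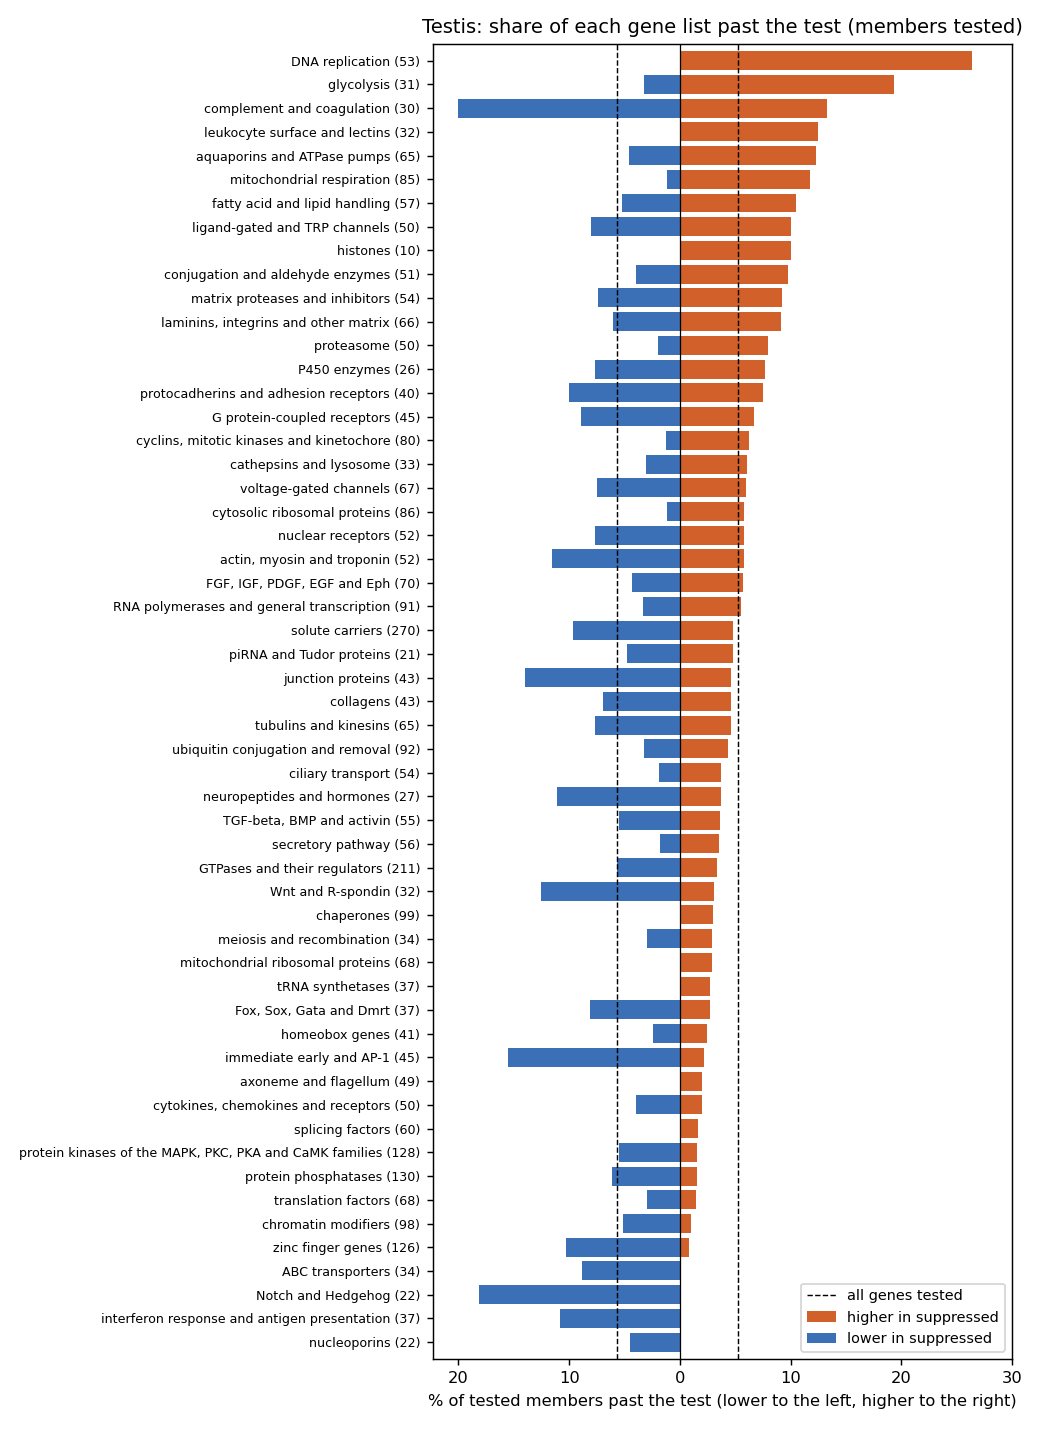
Share (%) of the tested members of each of 55 gene lists that rose (orange, to the right) or fell (blue, to the left) in suppressed testis, with the number tested in brackets and dashed lines at 5.25 and 5.68%, the shares of all 14368 genes. DNA replication has the longest bar to the right (14 of 53) and complement and coagulation the longest to the left (6 of 30).

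List medians were compared library by library as a description. In 18 of 55 lists the median lay above the control mean in all 3 suppressed libraries and in 22 below it. In 47 lists suppressed replicate 3 was the farthest from the control mean. Growth factors and receptor tyrosine kinases lay at -0.11, -0.14 and -0.85, matrix genes other than collagens at 0.23, 0.15 and -0.70 and P450 genes at -0.21, -0.04 and -1.04. DNA replication, at 0.39, 0.32 and 0.62, and proteasome, at 0.17, 0.19 and 0.61, lay above in each.

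**Figure D5:**
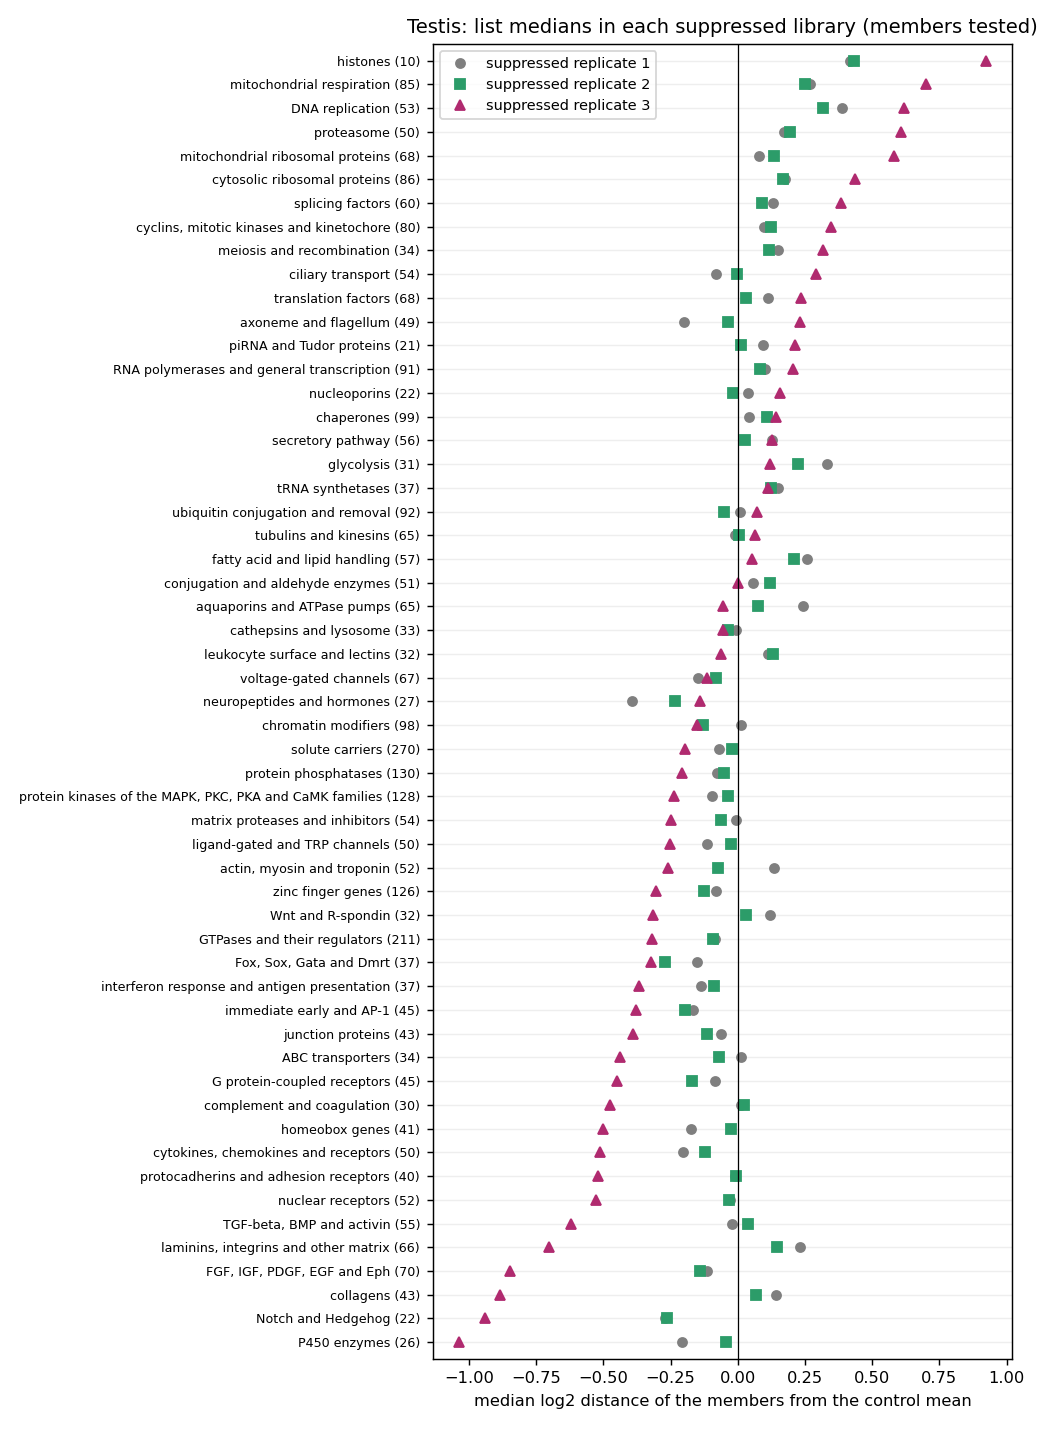
Median log2 distance from the control mean of the tested members of each of 55 gene lists, with 1 symbol for each suppressed library (circle, square and triangle for replicates 1, 2 and 3). Replicate 3 spans the widest range, from -1.04 for P450 genes to 0.92 for histones.

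The labels of ovary libraries allow the same contrast in the other gonad, where 2381 of 15382 genes (15.5%) had a change that differed between testis and ovary (edgeR interaction test at an adjusted p under 0.05). Of the 24 genes with the largest testis changes, 12 had such a difference. These genes were picked by their change in the same testis libraries, which favours a difference. Their count is therefore not to be read against the 15.5%, and some had ovary values at or near 0, as given below. Of the 11 that were also tested in ovary, 7 were called there, and all 7 in the direction seen in testis: acta1a, icn, fam188b2, agt, cited4a, ptgdsb.1 and psmb8a. The share of all ovary genes called is not given here, so this count does not show that the gonads changed alike. The interaction of the other 12 of the 24 genes did not pass, which also does not show that the tissues changed alike.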

How the data were processed

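Gonad RNA of Nile tilapia was sequenced, and the authors deposited 1 table of estimated counts and FPKM per gene and library. HISAT and StringTie are named, without versions, per the submitters' processing notes. The genome build, annotation, strand setting and treatment of reads that fit several genes are stated in none of the sources used here. The deposited expected counts are whole numbers, and the deposited FPKM lists 0 counts as 0.0001, set to 0 here. Genes with at least 1 FPKM in at least 3 of the 6 testis libraries were tested on counts with edgeR 4.0.16 (R 4.3.3; TMM scaling, quasi-likelihood test, called at a Benjamini-Hochberg adjusted p under 0.05 over all 14368 genes). The SE is the log2 change divided by the square root of F. Fits without 1 library kept the same genes. DESeq2 1.42.0, limma 3.58.1 on log2(FPKM + 1), other scalings, filters and a replicate block were alternatives. Steps were tested on simulated data. Members, gene lists and naming rules were chosen with earlier results of these data known. Named were the 12 largest changes each way among called genes with their own symbol, at least 5 FPKM in the higher group and separate groups. Also named were the 8 most abundant each way, up to 4 called members of smallest p per list and genes at 0 counts in 1 group. Further ones were the 8 most apart each way in suppressed replicate 3, and copies, or genes paired by a final a or b, moving apart. Genes that share a symbol are called copies, and their identity is less certain.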

Additional observations from a re-analysis of the deposited data

Results flagged for a closer look

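The change in testis differed from the change in ovary for 12 of the 24 genes with the largest testis changes (edgeR interaction test, adjusted over 15382 genes). Picking genes by their testis change favours such a difference, so the count is no measure of how common it is. A positive difference means a larger rise or a smaller fall in testis, and where an ovary group is at or near 0 the fitted difference depends on the prior count. For CLEC18A the difference was 7.85 on the log2 scale (SE 1.94, adjusted p = 0.0216), with ovary at 0, 0.0544 and 0 FPKM in control and 0, 0 and 0 in suppressed libraries. This difference exceeds the testis change itself (4.32), and the excess rests on a trace in 1 ovary library. CLEC18A reached 1 FPKM only in suppressed testis, so it does not show that the tissues changed differently. For acy3.2 the difference was 3.11 on the log2 scale (SE 0.46, adjusted p = 0.000719), with ovary at 1.07, 1.32 and 1.22 FPKM in control and 0.911, 2.41 and 1.09 in suppressed libraries. For gyg1a the difference was 3.44 on the log2 scale (SE 0.47, adjusted p = 0.000445), with ovary at 3.78, 4.24 and 4.18 FPKM in control and 3.27, 2.91 and 4.01 in suppressed libraries. For ADAMTS14 the difference was 2.86 on the log2 scale (SE 0.24, adjusted p = 1.2e-05), with ovary at 0.394, 0.451 and 0.601 FPKM in control and 0.448, 0.627 and 0.377 in suppressed libraries. For unc119a the difference was -4.96 on the log2 scale (SE 1.40, adjusted p = 0.0382), with ovary at 0, 0 and 0 FPKM in control and 0.874, 0.527 and 1.07 in suppressed libraries. For slc26a1 the difference was 3.25 on the log2 scale (SE 0.31, adjusted p = 3.59e-05), with ovary at 2.32, 1.71 and 1.66 FPKM in control and 0.854, 1.69 and 1.70 in suppressed libraries. For and2 the difference was -12.1 on the log2 scale (SE 1.47, adjusted p = 0.000203), with ovary at 0, 0 and 0.154 FPKM in control and 0.987, 0.593 and 0.572 in suppressed libraries. For agt the difference was 4.36 on the log2 scale (SE 0.52, adjusted p = 0.000158), with ovary at 20.9, 15.6 and 18.3 FPKM in control and 0.0349, 0.0428 and 0.0804 in suppressed libraries. For agrp the difference was -5.70 on the log2 scale (SE 1.50, adjusted p = 0.0234), with ovary at 0.416, 0 and 0 FPKM in control and 1.49, 0.215 and 0.319 in suppressed libraries. For cited4a the difference was -2.47 on the log2 scale (SE 0.45, adjusted p = 0.00286), with ovary at 1.61, 1.56 and 1.75 FPKM in control and 0.745, 0.993 and 0.732 in suppressed libraries. For clu the difference was -2.46 on the log2 scale (SE 0.32, adjusted p = 0.000285), with ovary at 378, 563 and 589 FPKM in control and 245, 455 and 284 in suppressed libraries. For ptgdsb.1 the difference was -1.54 on the log2 scale (SE 0.34, adjusted p = 0.00901), with ovary at 12.1, 18.8 and 20.9 FPKM in control and 7.004, 7.14 and 4.64 in suppressed libraries. The ovary value of agt fell further than that of testis, while and2, agrp and unc119a were low in ovary controls. CLEC18A was at or near 0 in all ovary libraries. No explanation was tested.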

How the results depend on the processing

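The main counts were 755 rises and 816 falls. DESeq2 called 1427 and 1464, and a fit of all 12 libraries 1567 and 1306. limma on log2(FPKM + 1) called 586 and 1261, rises being 31.7% of its calls. Leaving out 1 library gave 204 to 1396 rises and 214 to 1503 falls, lowest without control replicate 2 and highest without suppressed replicate 3. Median-of-ratios scaling (742 and 789), total-count scaling (554 and 1183), no filter (771 and 775), filterByExpr (800 and 846) and limma with 0.1 added (545 and 1110) stayed within 1.5 times. With a replicate block 153 rose and 123 fell, and interaction calls went from 2381 to 1179 (1705 to 3058 without 1 library). Same-numbered libraries did not deviate together from their group means (correlations of -0.31, -0.0045 and -0.378). These correlations cannot decide whether the numbers pair the libraries. Deviations cancel out within each group, and suppressed replicate 3 lay far from the other suppressed libraries. nr5a1 had a log2 change of 0.33 to 0.97 without 1 library, past the threshold only without suppressed replicate 3. Of 213 named genes with a call, 76 kept it under every alternative and 0 reversed; the block kept 77. The cause of these differences was not tested. Library totals of 36.8 to 56.6 M counts and 3 libraries a group limit what could be called.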
